A study of Homo sapiens with 18 samples.

Results

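The mitochondrial respiratory chain and ATP synthase are built from subunits of nuclear genes and of the mitochondrial genome, and the nuclear genes of complexes I to V were followed here across all 8 groups of a bulk RNA sequencing series of acute myeloid leukemia (AML) cell lines. The members were the protein-coding nuclear genes whose symbol begins with NDUFA, NDUFB, NDUFC, NDUFS or NDUFV and a digit, together with NDUFAB1, SDHA to SDHD, CYC1, COX8A and every symbol that starts with UQCR, COX4I, COX5, COX6, COX7 or ATP5. This rule uses names alone and no measured value, and it found 88 genes among 58037 Ensembl gene IDs, of which 19601 are protein-coding. There were 37 genes of complex I, 4 of complex II, 10 of complex III, 18 of complex IV, with NDUFA4 and its paralog NDUFA4L2 counted there, and 19 of complex V. Read-through genes whose symbol joins a member to a neighbor, 2 in all, were left out.

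The fusion MLL-AF9 is present in MOLM13 cells, a further MLL rearrangement in MV4-11 cells, and mutant NPM1 beside germline MLL in OCI-AML3 cells. Treated cells were exposed to the agents named below, and controls cultured without them, for 16 h before RNA extraction. MOLM13 and OCI-AML3 were kept in RPMI and MV4-11 in IMDM. The Menin inhibitor (MI) SNDX-50469, which the labels name VTP50469, was given at 500 nM to MOLM13 and OCI-AML3 and at 1000 nM to MV4-11. It blocks the contact of Menin with MLL, while OTX015, given to MOLM13 at 500 nM alone or with SNDX-50469, displaces the bromodomain and extra-terminal (BET) proteins from acetylated chromatin. Each MOLM13 and MV4-11 group held 2 libraries and each OCI-AML3 group 3, and the controls received neither agent. These are 3 established cell lines. Replicates of MOLM13 and OCI-AML3 are called biologic in the study. No source used here states this of MV4-11, whose p-values therefore reflect only how far these samples spread, which may be technical.

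Electrons from NADH enter the chain at complex I and electrons from succinate at complex II, also an enzyme of the citric acid cycle. They pass through ubiquinone to complex III, through cytochrome c to complex IV, and on to oxygen, while complexes I, III and IV pump protons that drive complex V, the ATP synthase. Complex II is made from nuclear genes only, whereas the other complexes hold mitochondrially encoded subunits at their core. AML cells are known for a reliance on oxidative phosphorylation, and nuclear respiratory factor 1 (NRF1), the ETS factor GABPA (nuclear respiratory factor 2), YY1 and MYC are known to bind promoters of such genes.

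Promoter sequence from RefSeq (GRCh38.p14, the assembly that hg38 denotes), reaching 250 bases upstream to 50 bases downstream of the gene start, was matched to 71 of the 88 members. The letters of 4 short motifs were searched on both strands, with matches that overlap counted once. The NRF1 motif GCGCANGCG, where N is any base, lay in 22 of the 71 member promoters (31.0%) and in 2197 of all 27305 promoters of the same length (8.05%). The GABPA motif CCGGAAGT lay in 10 (14.1%, against 4.44% of all), the YY1 motif AAGATGGCG in 8 (11.3%, against 1.85%) and the E-box CACGTG, a motif of MYC and MAX, in 7 (9.86%, against 7.44%). At least 1 of the 4 motifs was found in 36 member promoters, and the median GC content was 61.0% for the members and 58.3% for all promoters. The 27305 promoters outnumber the 19601 protein-coding IDs of the count table, so this background was not matched to the members in gene type. A match describes the letters and not a bound site.

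The sequences below are those of ATP5MC1 and ATP5MC2, genes for the same ring subunit of the ATP synthase whose levels moved apart in MOLM13, of UQCR11, the member of at least 10 CPM (defined below) with the largest fall under SNDX-50469 alone, of COX5B, a promoter with a pair of GABPA matches, and of SDHB and SDHA, partners in complex II that moved differently. They run 5′ to 3′ on the strand of the gene, and capitals mark the matches to the 4 motifs. ATP5MC1 (chr17:48892537-48892836, plus strand) holds an E-box, ATP5MC2 (chr12:53676034-53676333, minus strand) an NRF1 motif, UQCR11 (chr19:1605413-1605712, minus strand) an E-box, a GABPA motif and a pair of NRF1 motifs, and COX5B (chr2:97645812-97646111, plus strand) a pair of GABPA motifs. SDHB (chr1:17053983-17054282, minus strand) holds a YY1 motif and SDHA (chr5:218070-218369, plus strand) 4 NRF1 motifs. The ATP5MC2 window lies inside the span listed for that gene, 53665170 to 53681423, so it follows a start other than the outermost one.
ATP5MC1: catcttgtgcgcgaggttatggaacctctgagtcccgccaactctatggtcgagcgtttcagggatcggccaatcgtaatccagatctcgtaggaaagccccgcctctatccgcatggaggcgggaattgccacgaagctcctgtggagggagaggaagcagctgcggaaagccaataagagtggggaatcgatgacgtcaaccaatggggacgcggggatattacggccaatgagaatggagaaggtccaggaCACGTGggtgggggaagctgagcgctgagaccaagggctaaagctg
ATP5MC2: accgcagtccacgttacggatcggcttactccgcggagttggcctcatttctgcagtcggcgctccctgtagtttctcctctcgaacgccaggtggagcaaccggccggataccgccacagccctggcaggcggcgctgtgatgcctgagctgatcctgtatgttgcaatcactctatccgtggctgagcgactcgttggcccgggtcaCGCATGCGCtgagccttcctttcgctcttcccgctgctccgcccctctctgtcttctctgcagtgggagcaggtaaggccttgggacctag
UQCR11: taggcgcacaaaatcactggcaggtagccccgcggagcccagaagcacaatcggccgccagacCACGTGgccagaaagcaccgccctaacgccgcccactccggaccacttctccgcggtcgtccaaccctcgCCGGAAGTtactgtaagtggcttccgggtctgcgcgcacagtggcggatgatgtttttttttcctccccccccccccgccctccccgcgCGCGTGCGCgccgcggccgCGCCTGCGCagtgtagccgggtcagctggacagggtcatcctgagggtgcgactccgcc
COX5B: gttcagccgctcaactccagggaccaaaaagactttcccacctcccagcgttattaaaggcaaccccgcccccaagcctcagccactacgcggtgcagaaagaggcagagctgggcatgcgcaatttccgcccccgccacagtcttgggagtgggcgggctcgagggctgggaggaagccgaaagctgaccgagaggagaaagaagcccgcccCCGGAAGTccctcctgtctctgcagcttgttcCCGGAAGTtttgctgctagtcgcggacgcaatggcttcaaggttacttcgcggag
SDHB: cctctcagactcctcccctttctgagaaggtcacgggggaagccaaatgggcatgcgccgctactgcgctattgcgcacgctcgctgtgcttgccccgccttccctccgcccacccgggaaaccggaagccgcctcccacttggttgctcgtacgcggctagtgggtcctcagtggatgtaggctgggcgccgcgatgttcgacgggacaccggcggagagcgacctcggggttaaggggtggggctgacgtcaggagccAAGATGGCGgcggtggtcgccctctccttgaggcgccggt
SDHA: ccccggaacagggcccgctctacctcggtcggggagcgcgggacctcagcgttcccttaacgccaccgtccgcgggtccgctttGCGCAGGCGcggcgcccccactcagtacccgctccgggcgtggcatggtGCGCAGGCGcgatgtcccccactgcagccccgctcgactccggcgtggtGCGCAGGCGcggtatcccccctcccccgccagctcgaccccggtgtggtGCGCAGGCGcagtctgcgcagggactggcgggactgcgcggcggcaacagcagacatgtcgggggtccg

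Library totals ran from 19320216 to 59711884 counts, and between 0.812% and 1.26% of the counts in a library came from the 88 members. Levels are CPM, read counts divided by the library total and scaled by the trimmed mean of M values (TMM), within a line for treatments and over all 18 libraries where lines are set side by side. They depend on gene length, so levels are set side by side between libraries and not between genes, apart from the counts of gene copies and of the c subunit genes. Rises and falls are calls by edgeR's quasi-likelihood test, with a Benjamini-Hochberg adjusted p over all tested genes below 0.05 and a log2 fold change of at least 0.32 in size. Fold changes are given as log2 values ± standard error. The myeloid genes PTPRC, CD33, SPI1 and CSF3R had at least 1475 counts in every library, while CD68 had at most 16. HBB and KRT19 had 0 counts in all libraries and CD3E, MS4A1, EPCAM and CDH1 at most 2, whereas CD3D reached 140 counts, COL1A2 88 and KRT8 396. The other markers of T, B, erythroid, megakaryocytic, epithelial and stromal cells reached at most 74.

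After the filter on low counts 84 members were tested in MOLM13, 83 in OCI-AML3, 82 in MV4-11 and 84 across lines. COX4I2, COX6A2 and COX7B2 had 0 counts in all 18 libraries, which allows up to 3 counts, or between 0.0502 and 0.155 CPM depending on the library, and ATP5MGL had at most 4 counts. COX6B2 and COX7A1, which had at most 20 and 18 counts, were tested only where they passed the filter. Of the members that did, NDUFV2, NDUFA7, NDUFA13, COX6B2 and COX7A1 averaged below 3 CPM over the 18 libraries. Other genes of the count table overlapped 28.4% of the exonic bases of NDUFV2, 32.5% of NDUFA7 and 21.0% of NDUFA13, and neither the counting program nor its strand setting is stated in the sources used here. The part of these overlaps in the low counts was not tested.

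The summed level of the members stepped down across the MOLM13 groups, while treated and untreated libraries lay closer together in OCI-AML3 and overlapped in MV4-11. It was 13705 ± 209 CPM in MOLM13 controls (mean ± SD, n = 2), 11645 ± 21.9 with SNDX-50469, 9871 ± 96.8 with OTX015 and 8428 ± 12.7 with both, and no library of one of these groups reached the range of another. In OCI-AML3 the sum was 9453 ± 159 CPM in controls and 9123 ± 118 with SNDX-50469 (n = 3 each). Controls there ran from 9322 to 9629 CPM and treated libraries from 9027 to 9255, without overlap. Without TMM scaling the member shares of counts overlapped, at 0.971% to 1.00% in controls and 0.977% to 1.00% in treated libraries. In MV4-11 the sum was 9319 ± 51.5 CPM in controls, while the treated libraries, at 9910 and 8109 CPM, lay on either side of them. Complexes I, III, IV and V followed the same order in MOLM13, but complex II did not, at 750.1 ± 14.0 CPM in controls, 667 ± 3.38 with SNDX-50469, 755 ± 9.09 with OTX015 and 726 ± 14.1 with both. RNA sequencing of bulk cells gives levels relative to the rest of the RNA, and fewer cells of a type and less RNA per cell cannot be told apart.

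**Figure D1:**
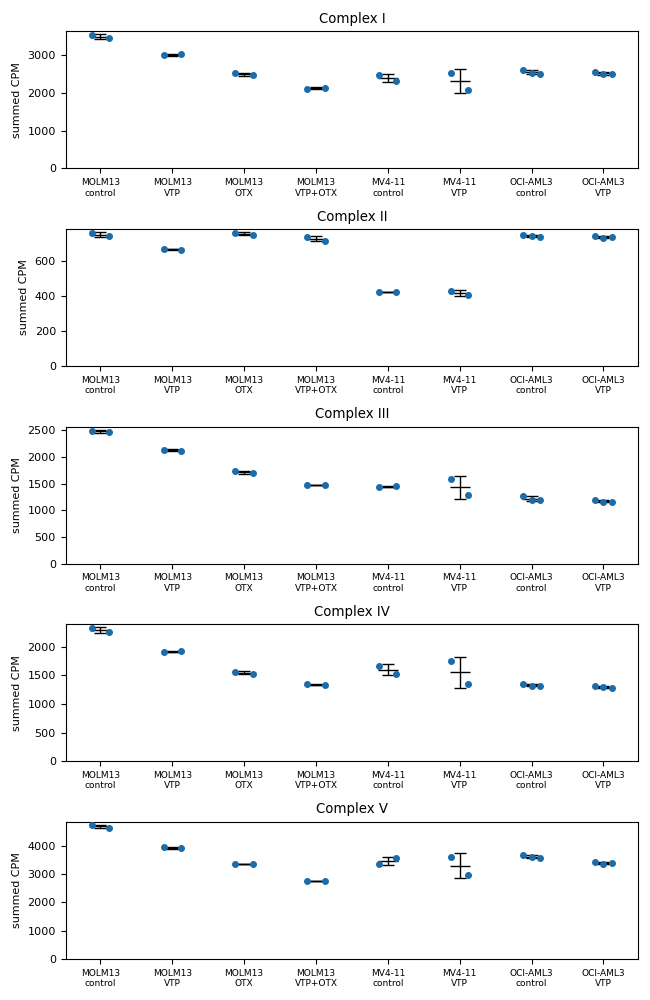
Summed CPM of the members of each complex by group, scaled over all 18 libraries, with each library as a point and the mean ± SD as black lines; vertical axes start at 0. Complexes I, III, IV and V step down from MOLM13 control to SNDX-50469 (VTP) to OTX015 (OTX) to both, for example from 4687 to 2760 CPM in complex V, while complex II stays between 664 and 762 CPM in all MOLM13 libraries.

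The share of transcripts of the mitochondrial genome was higher in the treated MOLM13 libraries. Members held 1.26% and 1.22% of the counts in the control libraries, 1.11% and 1.12% with SNDX-50469, 0.947% and 0.935% with OTX015 and 0.812% and 0.818% with both. Genes of the mitochondrial genome held 4.36% and 4.83%, 4.98% and 5.50%, 5.60% and 5.56%, and 5.74% and 6.01% in the same order. The ratio of member counts to mitochondrial genome counts was 0.290 and 0.253 in controls and 0.141 and 0.136 with both agents, and no MOLM13 group overlapped another in that ratio. The 6 OCI-AML3 libraries had a ratio between 0.122 and 0.136. Control replicate 1 of MV4-11 stood apart, since 10.3% of its counts were mitochondrial, while control replicate 2 had 5.60% and the treated libraries 6.23% and 6.68%.

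**Figure D2:**
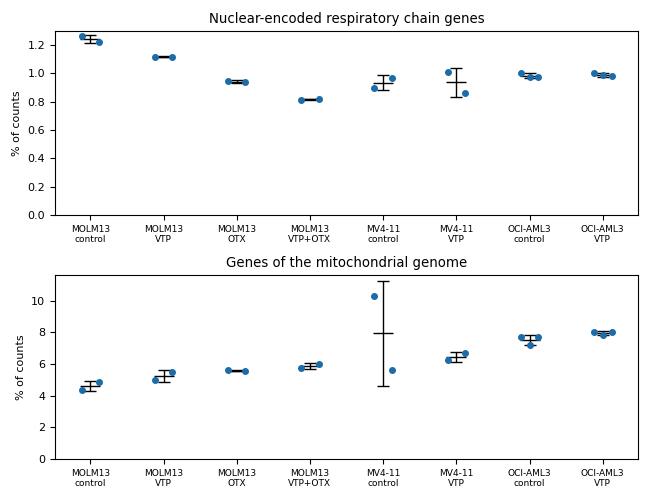
Percentage of all counts in each library that came from the 88 nuclear-encoded members (top) and from the mitochondrial genome (bottom), with libraries as points and mean ± SD as black lines. In MOLM13 the member share falls from 1.26% and 1.22% in controls to 0.812% and 0.818% with both agents while the mitochondrial share is higher, and MV4-11 control replicate 1 lies apart at 10.3%.

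The first comparison shows what Menin inhibition alone did to these genes in MOLM13. Of the 84 tested members 9 fell with SNDX-50469 and 0 rose, against a background of 8.06% of all 14360 tested genes called higher and 5.24% called lower. Most values were small and negative, since 78 of 84 (92.9%) had a negative log2 fold change against 48.7% of all genes, and the median was -0.20 against 0.01 for all genes. At the adjusted p alone, without the fold limit, 54 members were lower and 0 higher. The background above includes the fold limit, and the share of all genes without it is not given here. By complex, 4 of 37 members of complex I fell, 0 of 4 of complex II, 1 of 10 of complex III, 2 of 15 of complex IV and 2 of 18 of complex V.

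UQCR11, a small subunit of complex III (chromosome 19, 1597169 to 1605462 on GRCh38), had 31.5 and 28.96 CPM in the controls and 22.5 and 22.8 with SNDX-50469, a change of -0.42 ± 0.08 (adjusted p = 2.87e-05), and the groups did not overlap. NDUFB4, an accessory subunit of the membrane arm of complex I, went from 149 and 151 to 117 and 114 CPM (-0.38 ± 0.05). Both genes were lower in each treated library than in either control. NDUFC1 (-0.37 ± 0.07), another accessory subunit of complex I, ATP5PF (-0.36 ± 0.06), part of the peripheral stalk of the ATP synthase, and ATP5MF (-0.35 ± 0.06), its membrane subunit f, completed the 5 largest falls. The other called members were NDUFA8 (-0.34 ± 0.06), NDUFAB1 (-0.34 ± 0.05), the mitochondrial acyl carrier protein, COX5A (-0.33 ± 0.04) and COX7A2 (-0.33 ± 0.05), nuclear subunits of complex IV. NDUFA8 and NDUFAB1 were named here after their values were seen, to complete the set of 9. On the other strand, GABPA exons covered 34.4% of the exonic bases of ATP5PF, and NAA15 exons 19.5% of those of NDUFC1, and the part of such reads was not tested. Without control replicate 2 the count was 17, and with no scaling factors it was 3, both times with 0 members higher.

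With the BET inhibitor more members were called. OTX015 lowered 57 of the 84 and raised 1, where 24.7% of all tested genes were called lower and 23.5% higher. The median was -0.46 against 0.01 for all genes, and 90.5% of members had a negative value. In complex II 1 of 4 fell, and 22 of 37 members of complex I, 9 of 10 of complex III, 11 of 15 of complex IV and 14 of 18 of complex V fell. ATP5MC1 (-1.28 ± 0.06, adjusted p = 4.52e-30) fell most among members of at least 10 CPM, followed by UQCR11 (-1.06 ± 0.09), NDUFC1 (-1.05 ± 0.07), NDUFB7 (-0.88 ± 0.05) and UQCR10 (-0.88 ± 0.05), all small or accessory subunits. NDUFV3, a small subunit at the NADH-binding tip of complex I, was the member that rose. It had 57.3 and 53.7 CPM in controls and 71.5 and 69.98 with OTX015 (0.35 ± 0.06, adjusted p = 2.44e-07), with no overlap. With both agents it had 59.96 and 57.7 CPM. Myeloid genes moved with OTX015 too: all 4 tested of 5 listed fell, and their summed level was 761 to 786 CPM in controls, 838 to 842 with SNDX-50469, 435 to 452 with OTX015 and 672 to 695 with both (without TMM scaling). CD3D, the tested gene of 3 T cell markers, fell too, and the summed T cell markers went from at most 6.25 to at most 1.31 CPM. The part of these changes in the result for the members was not tested.

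With both agents 69 of 84 members fell and 0 rose, against 30.9% of all genes called lower and 31.2% called higher. The median was -0.70, while the median of all genes was 0.02. Among these, 8 were lower under each single agent as well, 49 were lower under OTX015 and the combination only, 1 under SNDX-50469 and the combination, and 11 under the combination alone. These comparisons share the control libraries. Of the 84 members, 72 had their lowest value of the 3 treatments with both agents. In 69 of them SNDX-50469 lay above OTX015 and OTX015 above the combination. The shares of all genes with such splits and orders are not given here, so these counts describe the members alone. The falls by complex were 28 of 37 for complex I, 2 of 4 for complex II, 10 of 10 for complex III, 13 of 15 for complex IV and 16 of 18 for complex V. The values ran from -1.47 to -0.35 in complex III, from -1.24 to 0.59 in complex IV and from -2.38 to -0.08 in complex V. Of 3 stromal markers COL1A1, the one tested, rose with both agents (2.13 ± 0.35), and their summed level was 0.466 to 0.650 CPM in controls and 2.44 to 2.85 with both, and the part of this was not tested.

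**Figure D3:**
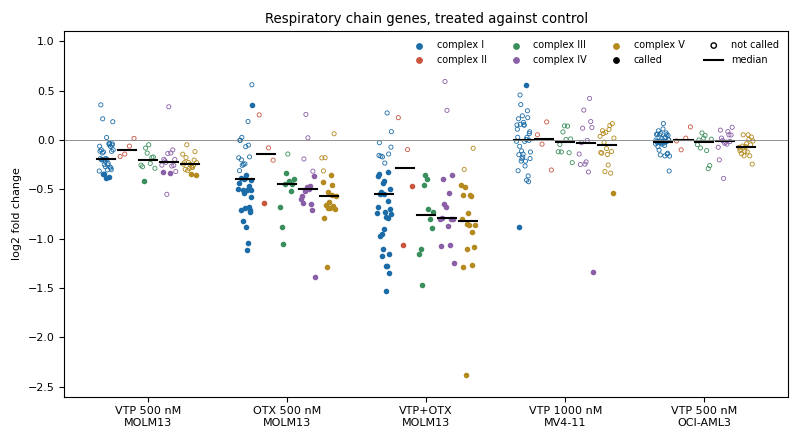
Log2 fold change against the untreated control of the same line for each tested member, colored by complex, with filled points for called members, open points for those not called and black bars for the median of a complex. Most MOLM13 members lie below 0 and lowest with both agents, down to -2.38 for ATP5MC1, while the OCI-AML3 values, none of them called, lie within -0.39 and 0.17; the MV4-11 dose was 1000 nM against 500 nM in the other lines.

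Complex I values with both agents ran from -1.53 for NDUFB8 to 0.27 for NDUFC2, which stood at under 10 CPM and did not pass. Its core subunits that carry electrons from NADH to ubiquinone fell with the accessory ones. Of the 7 core subunits 6 fell, with a median of -0.62, and of the 30 other members 22 fell, with a median of -0.55. NDUFV1, which binds NADH and flavin mononucleotide (chromosome 11, 67606936 to 67612554), had 319 and 304 CPM in controls, 297 and 308 with SNDX-50469, 217 and 221 with OTX015 and 192 and 179 with both (-0.75 ± 0.04, adjusted p = 1.2e-24). SNDX-50469 libraries overlapped the controls, whereas both groups that received OTX015 lay below them. NDUFS1, an iron-sulfur subunit, had 181 and 188, 179 and 177 and 178 and 178 CPM in the first 3 groups and 147 and 147 with both (-0.33 ± 0.04). Only the combination was called for this gene. NDUFS3 (-0.79 ± 0.05), NDUFS8 (-0.70 ± 0.05) and NDUFS7 (-0.50 ± 0.09), which line the path to ubiquinone, fell too, although 51.4% of the exonic bases of NDUFS7 are overlapped by genes on the other strand.

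Among accessory subunits NDUFS6 had 224 and 211 CPM in controls, 172 and 181 with SNDX-50469, 133 and 130.0 with OTX015 and 86.04 and 85.04 with both (-1.35 ± 0.05). NDUFC1 had 45.7 and 45.6, 33.8 and 36.6, 21.7 and 22.4 and 19.01 and 18.6 CPM in that order (-1.28 ± 0.08). None of the 4 groups overlapped another for either gene. NDUFB8 had a change of -1.53 ± 0.17 but only 8.18 and 8.22 CPM in controls, and 48.5% of its exonic bases are shared with other genes. NDUFS4 (-0.14 ± 0.07), NDUFA2 (-0.03 ± 0.08) and NDUFB1 (-0.17 ± 0.07) did not pass, and the first pair, like NDUFB8 and NDUFC2, was chosen for mention after the values were seen. NDUFV2 (-0.07 ± 0.50), another iron-sulfur core subunit, did not pass either, with 0.578 and 0.449 CPM in controls. A copy of it in the count table had 0.737 CPM against its own 0.513 CPM as means over the 18 libraries, so its level is uncertain.

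The subunits of complex II moved apart. SDHA, the flavoprotein that oxidizes succinate (chromosome 5, 218320 to 268746), had 448 and 424 CPM in controls, 388 and 389 with SNDX-50469, 517 and 524 with OTX015 and 526 and 495 with both. Both groups that received OTX015 lay above both groups that did not. The change with both agents was 0.23 ± 0.04 (adjusted p = 5.63e-07), which missed the fold limit. SDHB, the iron-sulfur subunit (chromosome 1, 17018722 to 17054032), had 156 and 159, 140.2 and 145, 105 and 96.7 and 73.4 and 77.2 CPM in the same order, without overlap, a change of -1.06 ± 0.05 (adjusted p = 5.64e-29). Of the membrane anchors, SDHD fell (-0.47 ± 0.08), while SDHC, with 65.1 and 68.03 CPM in controls and 63.9 and 60.7 with both, did not pass (-0.10 ± 0.06). SDHA has 4 pseudogene copies in the count table, whose summed level was 17.8 CPM against 389 CPM for SDHA as means over the 18 libraries without scaling.

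Every tested member of complex III fell with both agents. CYC1, cytochrome c1, had 842 and 814 CPM in controls, 692 and 696 with SNDX-50469, 516 and 518 with OTX015 and 379 and 365 with both (-1.16 ± 0.04, adjusted p = 5.05e-37), and the groups were separate. The Rieske iron-sulfur protein UQCRFS1 (-0.70 ± 0.04) and the core proteins UQCRC1 (-0.35 ± 0.04) and UQCRC2 (-0.40 ± 0.04) fell with smaller values than UQCR11, which had 14.4 and 14.6 CPM with OTX015 and 11.1 and 10.8 with both (-1.47 ± 0.09). UQCRH (-0.80 ± 0.05), the hinge protein, and UQCRHL (-0.89 ± 0.09) both fell, but the latter is a near-identical copy, so the split of reads between them is uncertain.

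In complex IV, cytochrome c oxidase, the nuclear subunits that surround the mitochondrially encoded catalytic core fell together. COX4I1 had 416 and 389.5 CPM in controls, 331 and 344 with SNDX-50469, 267 and 264 with OTX015 and 238 and 224 with both (-0.80 ± 0.04). COX5A had 278 and 274, 219.7 and 220.0, 191 and 182 and 134 and 128 CPM (-1.08 ± 0.04). For both genes the 4 groups kept the same order without overlap. COX5B (-0.79 ± 0.05), COX6C (-0.68 ± 0.04), COX7C (-0.80 ± 0.05), COX6A1 (-0.40 ± 0.07), COX6B1 (-0.65 ± 0.04), COX7A2 (-0.88 ± 0.05), COX7A2L (-0.54 ± 0.05), which joins complexes III and IV into supercomplexes, COX7B (-1.06 ± 0.05) and NDUFA4 (-0.80 ± 0.05) fell as well. Of the tissue-specific paralogs, COX6B2 (0.59 ± 0.65) and COX7A1 (0.30 ± 0.48) did not pass at under 1 CPM. NDUFA4L2, a hypoxia-induced paralog, fell (-1.24 ± 0.18) from 6.84 and 6.06 to 2.68 and 2.76 CPM.

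In complex V the 5 subunits of the catalytic F1 head had a median of -0.55 and the other 13 tested members one of -0.86, with 4 and 12 called lower. ATP5F1B, the catalytic beta subunit (chromosome 12, 56638175 to 56645984), had 1285 and 1279 CPM in controls, 1087 and 1075 with SNDX-50469, 957 and 945 with OTX015 and 756 and 717 with both (-0.80 ± 0.04). ATP5F1A, the alpha subunit (-0.46 ± 0.04), and ATP5F1C, the gamma shaft (-0.55 ± 0.05), fell as well, ATP5F1D, the delta subunit, more so (-1.29 ± 0.04). ATP5PO, the stalk protein that holds the head (-0.86 ± 0.07), and ATP5IF1, the inhibitor of ATP hydrolysis (-0.48 ± 0.06), fell too. ATP5IF1 had 58.5 and 52.5 CPM with OTX015 and 60.1 and 65.8 with both, against 90.2 and 85.2 in controls. Its level with both agents was thus no lower than with OTX015 alone. ATP5PD, a peripheral stalk subunit, did not pass (-0.08 ± 0.06), nor did ATP5F1E, the epsilon subunit of the head (-0.30 ± 0.05), which missed the fold limit, and both were chosen for mention after their values were seen.

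The member with the largest change was ATP5MC1, 1 of 3 genes that encode the same mature c subunit of the membrane ring (chromosome 17, 48892787 to 48895871). It had 133 and 121 CPM in controls, 106 and 99.4 with SNDX-50469, 51.1 and 53.4 with OTX015 and 25.2 and 23.7 with both, a change of -2.38 ± 0.06 (adjusted p = 2.99e-42). The groups did not overlap and the combination was far below either agent. ATP5MC2 went from 316 and 299 to 171 and 169.6 CPM (-0.85 ± 0.04) and ATP5MC3 from 291 and 283 to 135 and 133 CPM (-1.10 ± 0.04). Of the counts of the 3 genes, ATP5MC1 held 18% and 17.2% in controls, 17.6% and 16.6% with SNDX-50469, 11.6% and 12.1% with OTX015 and 7.61% and 7.26% with both. Its share was thus lowest in the combination, and the untreated and SNDX-50469 groups overlapped. In OCI-AML3 the share was 14.9% to 15.1% in controls and 14.3% to 14.6% with SNDX-50469. The printed ATP5MC1 promoter holds an E-box match and the ATP5MC2 promoter an NRF1 match. Over the tested members with promoter sequence, the median change with both agents was -0.69 for the 22 with an NRF1 motif and -0.70 for the 47 without, and -0.74 for the 7 with an E-box and -0.68 for the 62 without. It was -0.60 for the 10 with a GABPA motif and -0.70 for the 59 without, and -0.51 for the 8 with a YY1 motif and -0.70 for the 61 without, and none of these differences was tested.

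**Figure D4:**
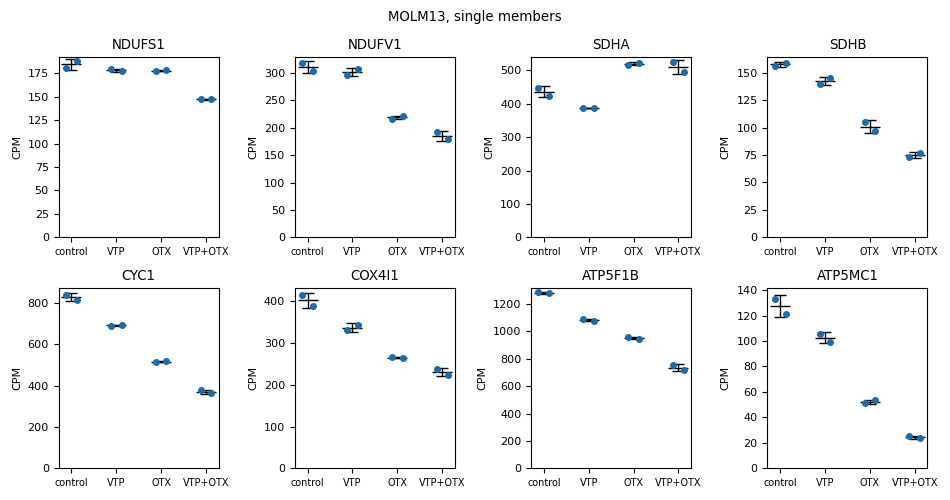
CPM of 8 members in the MOLM13 libraries, scaled within the line, with libraries as points and mean ± SD as black lines; vertical axes start at 0. Levels step down to the combination for SDHB, CYC1, COX4I1, ATP5F1B and ATP5MC1, NDUFS1 is lower with both agents, and SDHA is higher with OTX015 than without.

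The combination was also set against each single agent. Compared with SNDX-50469 alone it lowered 57 members and raised 1, against 29% of all genes lower and 27.9% higher, with a median of -0.51. SDHA was the member that rose (0.39 ± 0.04), and ATP5MC1 (-2.07 ± 0.06), UQCR11 (-1.05 ± 0.09), NDUFS6 (-1.05 ± 0.05), ATP5MK (-1.01 ± 0.07), a small membrane subunit of the ATP synthase, and ATP5F1D (-0.99 ± 0.04) fell most among members of at least 10 CPM. Compared with OTX015 alone it lowered 21 and raised 0, against 16.5% and 18.4% of all genes, with a median of -0.23. Here ATP5MC1 (-1.10 ± 0.07), ATP5MK (-0.71 ± 0.08), NDUFAB1 (-0.67 ± 0.06), NDUFS6 (-0.62 ± 0.05) and ATP5MC3 (-0.57 ± 0.04) fell most at that level. Complex I had 6 of 37 members lower, complex II 1 of 4, complex III 4 of 10, complex IV 4 of 15 and complex V 6 of 18 in that comparison.

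Whether SNDX-50469 acted differently in the presence of OTX015 was tested as an interaction, its effect with OTX015 minus its effect without. Of the 84 members 4 had a lower and 1 a higher value than the sum of the single effects, where 12.7% of all genes were called lower and 11.5% higher, and the median was -0.04. The 4 lower members were ATP5MC1 (-0.79 ± 0.09, adjusted p = 1.19e-11), ATP5MK (-0.45 ± 0.10), NDUFB10 (-0.37 ± 0.06) and NDUFAB1 (-0.33 ± 0.08), and the higher one was NDUFB1 (0.32 ± 0.10, adjusted p = 0.0107). NDUFB1, an accessory subunit, had 35.1 and 36.1 CPM in controls, 30.1 and 29.8 with SNDX-50469, 31.7 and 28.4 with OTX015 and 33.3 and 30.03 with both. NDUFB10, also accessory, had 194 and 189, 169.6 and 163, 134 and 129 and 89.8 and 87.7 CPM. Its level with both was thus below what the single changes add up to, and that of NDUFB1 above. The count was 3 without control replicate 2, without OTX015 replicate 1 or without replicate 1 of the combination.

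In MV4-11, at 1000 nM SNDX-50469, 44 of the 82 tested members had a negative value, so that no direction prevailed. Of these 3 fell and 1 rose, against 9.34% and 11.4% of all 15486 tested genes, with a median of -0.01. NDUFA5, an accessory subunit of complex I, had 58.4 and 42.1 CPM in controls and 26.96 and 27.4 in treated libraries (-0.88 ± 0.18, adjusted p = 0.00201). NDUFA4L2 had 6.62 and 5.42 and 2.52 and 2.23 CPM (-1.34 ± 0.25). Neither gene overlapped between the groups. ATP5PF fell from 82.8 and 65.6 to 55.8 and 46.2 CPM (-0.54 ± 0.17), and GABPA, which overlaps it on the other strand, fell as well (-0.77 ± 0.19), and its part in the ATP5PF count was not tested. NDUFC1 rose from 24.8 and 30.02 to 42.6 and 37.99 CPM (0.55 ± 0.17), although it fell in MOLM13 at 500 nM, and a difference between lines at unlike doses was not tested. Between replicates of this line genes varied by 13.2% (edgeR's common coefficient of variation beyond counting error), against 3.06% in MOLM13 and 3.15% in OCI-AML3. The number called was 1 without control replicate 1, 7 without control replicate 2 and 8 without treated replicate 2, and the median was -0.22 without treated replicate 1. Myeloid markers summed to 847 to 876 CPM in controls and 1128 to 1136 in treated libraries. Epithelial markers summed to 7.38 to 9.60 CPM in controls and 11.4 to 13.95 in treated libraries, and stromal markers to 0.0665 to 0.0965 and 0.987 to 1.13 CPM. The part of these changes was not tested.

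In OCI-AML3, at 500 nM, 0 of 83 members passed in either direction, against 4.53% of all 16611 tested genes lower and 8.58% higher by edgeR's quasi-likelihood test. At an unadjusted p below 0.05 there were 28 members, and at the adjusted p without the fold limit 19 were lower and 5 higher. The shares of all genes at these looser thresholds are not given here. With the fold limit limma-voom and DESeq2 also called 0. The median was -0.02. Complex V held 9 of the 19 lower members, and its summed level was 3614 ± 43.6 CPM in controls and 3391 ± 46.7 in treated libraries (n = 3 each), without overlap. Without TMM scaling its share of counts was 0.3804%, 0.3755% and 0.3717% in controls and 0.3720%, 0.3650% and 0.3642% in treated libraries, which overlapped. With no scaling factors the median of all tested members was 0.0361. ATP5F1B had 1184, 1195 and 1177 CPM in controls and 1111, 1078 and 1107 with SNDX-50469 (-0.11 ± 0.02, adjusted p = 0.000814). UQCRH had 232, 228 and 228 and 189.8, 187 and 185 CPM (-0.29 ± 0.02). These groups did not overlap, but the changes stayed under the fold limit. CYC1 (-0.05 ± 0.06), ATP5MC1 (-0.16 ± 0.03), COX5A (-0.20 ± 0.04) and SDHA (-0.01 ± 0.02) did not pass either. Both tested stromal markers of 3 listed rose, from a summed 0.788 to 1.055 CPM in controls to 1.498 to 1.93 in treated libraries, and the part of this was not tested.

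The responses of OCI-AML3 and MOLM13 to the same dose were compared as a difference of differences in 1 fit of all 18 libraries. It was higher in OCI-AML3 for 4 of 84 members and lower for 0, against 2.60% and 1.49% of all 17597 tested genes, with a median of 0.18 and 8.3% of members below 0. NDUFA8 (0.42 ± 0.10, adjusted p = 0.0141), NDUFB6 (0.39 ± 0.09), NDUFB4 (0.39 ± 0.10) and ATP5MG (0.35 ± 0.09), subunit g of the ATP synthase membrane part, passed. NDUFB4 had 91.8, 86.1 and 87.7 CPM in OCI-AML3 controls and 87.5, 87.3 and 87.8 with SNDX-50469, overlapping, whereas its MOLM13 groups given above did not overlap. NDUFB6 had 43.1, 44.1 and 43.7 and 49.1, 49.9 and 48.03 CPM in OCI-AML3 and 43.5 and 42.5 and 36.7 and 38.3 in MOLM13. For this gene every treated library lay above the controls in OCI-AML3 and below them in MOLM13. Leaving out a single MOLM13 control or SNDX-50469 library brought the number called to 0, and without 1 OCI-AML3 library it was between 2 and 3.

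Untreated MOLM13 cells had higher levels of most members than either other line. Against OCI-AML3, 49 of 84 members were higher and 9 lower, where 30.5% of all genes were higher and 33.7% lower, with a median of 0.44. With no scaling factors, which moved the median of all genes to -0.24, the counts were 36 and 13. Against MV4-11, 55 were higher and 7 lower, where 29.3% and 34.2% of all genes were, with a median of 0.49. MV4-11 had 19 members higher and 27 lower than OCI-AML3, where 34.3% and 33.1% of all genes were, with a median of -0.03, and the split was 23 and 20 with limma-voom and quantile normalization. The sources used here do not say that the lines were grown or sequenced together, so line and sequencing run cannot be told apart, nor, against MV4-11, the medium.

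Most members of complexes III and IV were higher in MOLM13. Of the 10 members of complex III, 8 were higher than in OCI-AML3 and 8 higher than in MV4-11, and of the 15 tested members of complex IV, 14 and 12 were, with 0 lower in any of these. CYC1 had 894 and 871 CPM in MOLM13, while MV4-11 had 275 and 326 and OCI-AML3 296, 247 and 240.1, and MOLM13 was above both (1.76 ± 0.09 against OCI-AML3 and 1.55 ± 0.10 against MV4-11). NDUFB7, an accessory subunit of complex I, had 169 and 165, 91.3 and 91.1 and 55.1, 53.97 and 50.8 CPM in that order of lines (1.65 ± 0.08 against OCI-AML3). The core protein UQCRC2 had 214 and 212, 225 and 243 and 95.98, 98.9 and 96.6 CPM, with MOLM13 and MV4-11 well above OCI-AML3 (1.13 ± 0.06 and 1.27 ± 0.06). NDUFS7 (1.63 ± 0.12), ATP5F1D (1.47 ± 0.10) and COX6B1 (1.43 ± 0.08) were also among the 5 members of at least 10 CPM that exceeded OCI-AML3 most in MOLM13.

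**Figure D5:**
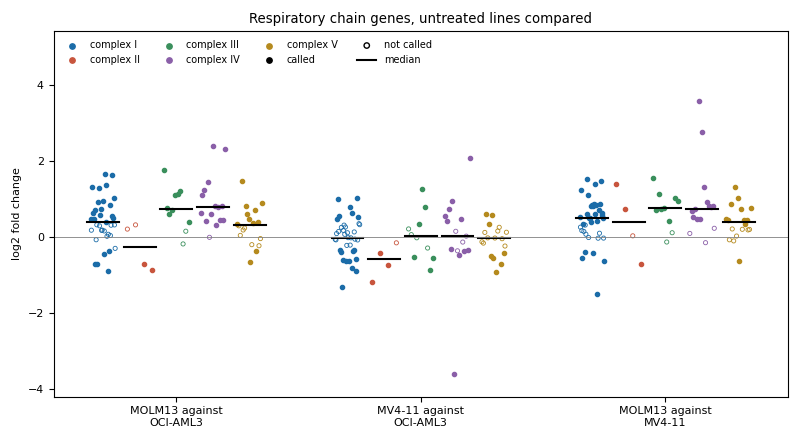
Log2 fold change between untreated lines for each tested member, colored by complex, with filled points for called members, open points for those not called and black bars for the median of a complex. Complexes III and IV have medians of 0.73 and 0.78 for MOLM13 against OCI-AML3 and 0.75 and 0.74 against MV4-11, while complex II has medians of -0.26 for MOLM13 and -0.58 for MV4-11 against OCI-AML3.

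Of complex II 0 of 4 members were higher and 2 lower in MOLM13 than in OCI-AML3. SDHA had 476 and 454 CPM in MOLM13 but 185 and 168 in MV4-11, and OCI-AML3 controls had 406, 404 and 402, so MV4-11 was lowest (-1.19 ± 0.06 against OCI-AML3 and 1.40 ± 0.06 for MOLM13 against MV4-11). SDHC had 69.2 and 72.8, 62.8 and 76.2 and 115, 118 and 119 CPM, with OCI-AML3 highest (-0.72 ± 0.07 for MOLM13), and SDHD was lower in MOLM13 than in OCI-AML3 (-0.88 ± 0.10) or MV4-11 (-0.72 ± 0.11). Of complex I, NDUFA8 had 58.1 and 57.7, 37.3 and 38.8 and 97.3, 94.8 and 93.8 CPM, again highest in OCI-AML3 (-0.72 ± 0.07 for MOLM13 and -1.32 ± 0.07 for MV4-11). NDUFA5 (-0.72 ± 0.11) and NDUFB5 (-0.46 ± 0.07) were lower in MOLM13 than in OCI-AML3 as well. Of the paralogs at low levels, NDUFA4L2 was lowest in OCI-AML3, at 1.18, 1.65 and 1.33 CPM. It had 7.26 and 6.49 CPM in MOLM13 and 6.60 and 5.29 in MV4-11 (2.31 ± 0.18 and 2.08 ± 0.17 against OCI-AML3). COX6B2 had 0 counts in 2 libraries, both of MV4-11, and at most 20 in any other.

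Genes that serve the chain were counted beside the members. Of 44 tested assembly factors, 8 fell and 1 rose with SNDX-50469 in MOLM13. With OTX015 23 fell and 3 rose, and with both 32 fell and 3 rose. In the same order 5.24%, 24.7% and 30.9% of all tested genes were called lower and 8.06%, 23.5% and 31.2% higher. Medians of the assembly factors were -0.17, -0.35 and -0.70. Among those of at least 10 CPM, NDUFAF8 (-2.12 ± 0.08), COA7 (-1.87 ± 0.06), COA6 (-1.75 ± 0.13), NDUFAF2 (-1.72 ± 0.10) and NDUFAF4 (-1.61 ± 0.08) fell most with both agents, while SURF1 (0.69 ± 0.08) and TTC19 (0.48 ± 0.07) rose. NDUFAF2, NDUFAF4 and NDUFAF8 assist complex I, and COA6, COA7 and SURF1 complex IV. In MV4-11 8 assembly factors fell and 2 rose, where 9.34% and 11.4% of all genes did. In OCI-AML3 2 fell, NDUFAF3 (-0.37 ± 0.03) and NDUFAF8 (-0.38 ± 0.13), with 0 higher. There 4.53% of all genes were called lower and 8.58% higher.

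In MOLM13 the 13 protein-coding transcripts of the mitochondrial genome had medians of the other sign. They were 0.18, 0.17 and 0.19 with SNDX-50469, OTX015 and both. In these comparisons 8.06%, 23.5% and 31.2% of all genes were called higher and 5.24%, 24.7% and 30.9% lower. Of the 13 transcripts 0 were called with SNDX-50469, 5 rose with OTX015 and 3 rose with both, and 0 fell. The latter 3 were MT-ND5 (0.58 ± 0.04) and MT-ND6 (0.57 ± 0.04), proton-pumping subunits of complex I, and MT-CYB (0.58 ± 0.04), cytochrome b of complex III. MT-ND6 is transcribed from the other strand than its neighbors, and the strand setting of the counts is unknown. In OCI-AML3 and MV4-11 0 were called. Values ran from -0.05 (MT-ND2) to 0.08 (MT-ND5) in OCI-AML3. In MV4-11 all were negative, from -0.65 ± 0.27 (MT-ND6) to -0.26 ± 0.26 (MT-CYB). Control replicate 1 of that line had 10.3% mitochondrial counts, and its part in these values was not tested. Among 18 enzymes of the citric acid cycle and pyruvate oxidation, 8 fell and 3 rose with both agents in MOLM13 (median -0.26). Of all genes 30.9% were called lower and 31.2% higher there. The enzymes that rose were PC (0.84 ± 0.06), OGDH (0.53 ± 0.04) and IDH2 (0.50 ± 0.04). The larger falls included DLAT (-1.15 ± 0.05), a pyruvate dehydrogenase subunit, and MDH2 (-0.96 ± 0.04). Of 7 electron carriers and feeders 3 fell and 2 rose with both agents, with CYCS, cytochrome c, at -1.48 ± 0.05, and all 6 tested carriers and channels fell, with VDAC1, the outer membrane channel, at -1.40 ± 0.04.

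The 14 tested genes listed as regulators include factors that act on mitochondrial DNA and a regulator of antioxidant genes. Of these 14, 2 fell with SNDX-50469 in MOLM13, 6 fell and 1 rose with OTX015, and 9 fell and 1 rose with both. Their medians were -0.11, -0.26 and -0.71. In the same order 5.24%, 24.7% and 30.9% of all genes were called lower and 8.06%, 23.5% and 31.2% higher. The coactivators PPARGC1B (-1.33 ± 0.07) and PPRC1 (-1.35 ± 0.05), the receptor ESRRA (-0.71 ± 0.05) and TFAM (-0.37 ± 0.06), which packages and transcribes mitochondrial DNA, fell with both agents. NRF1 (0.04 ± 0.08) and GABPA (-0.11 ± 0.08) did not pass, and PPARGC1A was not tested because its counts were below the filter. MYC fell most (-2.86 ± 0.04, against -0.34 ± 0.04 with SNDX-50469 and -1.09 ± 0.04 with OTX015), followed by TFB2M (-1.71 ± 0.08), a factor for mitochondrial transcription, and NFE2L2 (0.87 ± 0.05), a regulator of antioxidant genes, rose. In MV4-11 6 regulators fell, among them MYC (-0.93 ± 0.16), GABPA (-0.77 ± 0.19) and TFAM (-0.56 ± 0.16), and 0 rose. In OCI-AML3 MYC (-0.35 ± 0.02) and TFB2M (-0.41 ± 0.03) fell and 0 rose. Of all genes 9.34% were called lower and 11.4% higher in MV4-11, and 4.53% and 8.58% in OCI-AML3. Whether the regulators had a part in the changes of the members was not tested.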

How the data were processed

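RNA of MOLM13, MV4-11 and OCI-AML3 cells was sequenced in 18 libraries. The authors deposited a table of raw read counts per Ensembl gene, whole numbers with no normalization, and every value used here came from it. The submitters' notes name STAR, and the build hg38. The study's methods name other alignment and assembly programs, so the aligner is unsure. How reads were counted, on which strand and with which annotation is not stated by any source at hand. Library totals ran from 19320216 to 59711884 counts. The floor was 3 counts and covers counting error only. Standard errors of the edgeR fits and SDs also take in the spread between libraries.

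Gene IDs were matched to RefSeq names, and members were taken by name. The members and the gene lists were chosen with earlier results of these data known. Counts were filtered by expression, scaled by TMM and fitted with edgeR 4.0.16 (quasi-likelihood test) in R 4.3.3, with a fit for each line for treatments and 1 fit of all libraries for comparisons between lines, and p-values adjusted over all tested genes by the Benjamini-Hochberg method. A call needed an adjusted p below 0.05 and the fold limit the study uses, a log2 value of 0.32. Genes named were core subunits, paralog sets and, in each comparison, up to 5 called members in each direction with the largest change at a mean of at least 10 CPM. In other lists called genes, up to 5 in each direction, and a set of known regulators were named. Alternatives were other size factors, no filter, a replicate block, limma 3.58.1 with voom, DESeq2 1.42.0, no fold limit, other sets of libraries and leaving out each library. The scripts were tested on simulated data. Correlations of the deviations of same-numbered libraries from their group means ran from -0.0446 to 0.0978, none over 0.1, so the numbers were not taken as pairs. No pair of libraries was identical. Of the genes that the naming rule and the marker lists cover, 1 member and 1 marker are not reported here.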

Additional observations from a re-analysis of the deposited data

Results flagged for a closer look

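A tested difference between the effects of an agent in 2 settings singled out 9 members. The calls were by edgeR's quasi-likelihood test with adjusted p below 0.05 and a log2 difference of at least 0.32 in size. The effect of SNDX-50469 in MOLM13 differed with and without OTX015 for 5 of them. It was lower with OTX015 for ATP5MC1 (-0.79), ATP5MK (-0.45), NDUFB10 (-0.37) and NDUFAB1 (-0.33), and higher for NDUFB1 (0.32), all on the log2 scale. The effect of SNDX-50469 at the same dose was higher in OCI-AML3 than in MOLM13 for NDUFA8 (0.42), NDUFB4 (0.39), NDUFB6 (0.39) and ATP5MG (0.35), 4 in all, and these calls were lost when any library of MOLM13 control or SNDX-50469 was left out. Groups of 2 or 3 libraries are too small for a test of single outlying libraries.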

How the results depend on the processing

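Of 348 recomputed medians and counts, 296 kept their direction and lay within the replicate spread or within 1.5 times the main count, 50 moved and 2 reversed, and of 10565 recomputed values of single genes 10144 kept direction and call and 2 reversed, while the rest gained or lost a call. The cause of these moves was not tested unless the setting itself states it. With no scaling factors the medians were -0.154 (SNDX-50469, MOLM13), -0.605 (both agents), -0.461 (both against SNDX-50469), -0.178 (both against OTX015), 0.0361 (OCI-AML3), 0.246 (MOLM13 against OCI-AML3), -0.0911 (MV4-11 against OCI-AML3) and 0.354 (MOLM13 against MV4-11), and 3 members were called for SNDX-50469 in MOLM13 and 2 for the difference of responses. That setting moved the median of all genes by over 0.1 for both agents, to 0.115, and for MOLM13 against OCI-AML3 and MV4-11, to -0.243 and -0.206. With no filter, 15 members were called for SNDX-50469 in MOLM13, and the medians against OCI-AML3 were 0.391 (MOLM13) and -0.111 (MV4-11). The replicate block gave 7 calls in MV4-11, 8 for the difference of responses and a median of -0.0457 for MV4-11 against OCI-AML3; it moved no other median or count as far. DESeq2 called 7 members for the difference of responses. With limma-voom and quantile normalization 5 members were called for SNDX-50469 in MOLM13 and 2 for the difference of responses, the medians were -0.619 (both agents), -0.478 (both against SNDX-50469) and 0.394 (MOLM13 against MV4-11), that of MV4-11 against OCI-AML3 turned to 0.00864, and ATP5F1A turned to -0.0877 for MOLM13 against OCI-AML3. Without the fold limit the counts were 54 (SNDX-50469, MOLM13), 56 (both against OTX015), 21 (interaction) and 24 (OCI-AML3), with no share of all genes given at that setting. A fit of all 18 libraries gave a median of -0.475 for both against SNDX-50469, 2 calls and a median of 0.0198 for the interaction, and 12 calls in MV4-11. Leaving out 1 library gave 8 to 17 calls for SNDX-50469 in MOLM13, 3 to 7 for the interaction, 1 to 8 in MV4-11 and 0 to 3 for the difference of responses, and medians of -0.522 to -0.484 for both against SNDX-50469, -0.216 to 0.116 in MV4-11, -0.0313 to 0.00743 in OCI-AML3, 0.163 to 0.226 for the difference of responses, -0.0659 to -0.0182 for MV4-11 against OCI-AML3 and 0.486 to 0.555 for MOLM13 against MV4-11. ATP5IF1 ranged from -0.0104, a turn of sign, without control replicate 1 of MV4-11 to 0.602 without control replicate 2, for MV4-11 against OCI-AML3. Where a group was left with 1 library, that library was assumed to vary like the other groups. With 2 libraries a group in MOLM13 and MV4-11, precision rests on the spread pooled over groups.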
